A study of Mus musculus with 20 samples.

Results

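The 35 genes described here mark the immune cells of the mouse liver: resident macrophages (Kupffer cells), other myeloid cells, the antigen-presenting machinery of MHC class II, T, NK and B lymphocytes, 2 chemokines and a pair of neutrophil proteins. They were taken by symbol from a liver RNA-seq table of 45306 genes. All 35 were found, 34 under the symbol used here and Adgre1 through its Ensembl identifier, because the table lists it as Emr1. The livers came from 20 mice on a C57BL/6 background in 4 groups of 5, numbered 1 to 20 across the groups. Control mice (1 to 5) were wild type and kept at room temperature, CE mice (6 to 10) were wild type and exposed to cold, Sirt2-/- mice (11 to 15) were knockouts kept at room temperature, and Sirt2-/-/CE mice (16 to 20) were knockouts exposed to cold. Cold exposure was 4 °C for 3 h per day over 3 weeks. The knockout was made by injecting fertilized eggs with a Cas9 complex aimed at exons 5 to 7 of Sirt2, so it is not limited to a cell type and the immune cells can carry it too. The mice are described in the study as 5 weeks old when the groups were formed, and their sex only as shared by the groups within an experiment.

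Kupffer cells sit in the liver sinusoids, where they clear bacteria, debris and aged red cells from portal blood. They make complement C1q and carry scavenger and complement receptors, and in the mouse Clec4f and Timd4 set them apart from macrophages that arrive later from blood monocytes. MHC class II molecules present peptides to CD4+ T cells. In the liver they are carried by dendritic cells, B cells, part of the macrophages and, at a low level, sinusoidal endothelium. In whole liver such genes make up a small share of the RNA, and a lower level can come from fewer cells of a type or from less RNA per cell, which these bulk samples cannot tell apart.

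The libraries held 35499796 to 53917339 counts each, of which the 35 genes took 0.0240% to 0.0960%. The label liver was checked on 9 hepatocyte markers, which were high in every library, summing to between 82522 and 174196 CPM (counts relative to library size, scaled by TMM, a correction for differences in library composition). Sirt2 was at 41.3 to 44.5 CPM in Control, 40.2 to 56.2 in CE, 16.9 to 27.5 in Sirt2-/- and 18.97 to 27.5 in Sirt2-/-/CE. Every knockout library was thus below every wild-type library, and the difference over both treatments was -1.03 on the log2 scale (SE 0.10, edgeR adjusted p = 5.75e-05). Counts over a whole gene include exons outside the targeted ones. Nothing in the labels gives a litter or a sequencing batch.

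Per length, in the authors' FPKM values, the most abundant of the 35 genes averaged over 20 mice were Lyz2 (lysozyme of myeloid cells, 46.4 FPKM), Cd74 (the invariant chain of MHC class II, 43.8) and Cd5l (a protein secreted by tissue macrophages, 43.3). They were followed by C1qb and Clec4f (32.1 each), C1qa (31.6), C1qc (24.0), the lysosomal protease Ctss (19.6), the class II chain genes H2-Ab1 (17.4) and H2-Aa (15.4), the complement receptor gene Vsig4 (15.03) and H2-Eb1 (13.1). Lymphocyte genes lay far lower, with Nkg7 at 0.567 FPKM, Cd3e at 0.190 and Cd8a at 0.0979. S100a8 was counted 0 to 40 times per library, with 0 in 8 of 20 mice, and was the only one of the 35 that did not pass the filter on low counts. The remaining 34 were tested among 15616 genes.

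Several members lie near each other in the mouse genome (GRCm38 coordinates from GENCODE). H2-Ab1, H2-Aa and H2-Eb1 lie in this order on chromosome 17 with gaps of 13324 and 18043 bases, and C1qb, C1qc and C1qa on chromosome 4 with gaps of 3616 and 2851 bases. S100a8 and S100a9 lie 22596 bases apart on chromosome 3, Itgam and Itgax 11055 on chromosome 7, and Cd3g and Cd3e 18308 on chromosome 9. These distances are between members, and other genes may lie in the gaps. Genes of the MHC class II family are known for an upstream block of short elements, the X and Y boxes, on which the class II transactivator is assembled. Because the class II genes carried the lowest p-values of the 35 in 3 comparisons, the upstream stretches of the pair held by the RefSeq promoter table (build GRCm38.p6) are shown, from 130 to 31 bases before the start site and read 5′ to 3′ on the gene's strand. H2-Aa is at chr17:34287854-34287953 on the minus strand and H2-Eb1 at chr17:34305737-34305836 on the plus strand. Capitals mark matches to CTGATTGG (a Y box), TAGCAAC (an X1 box core) and TGACGTCA (an X2 box, which reads the same on both strands).
H2-Aa: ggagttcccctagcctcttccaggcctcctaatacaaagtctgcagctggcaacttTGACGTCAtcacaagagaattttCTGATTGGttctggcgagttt
H2-Eb1: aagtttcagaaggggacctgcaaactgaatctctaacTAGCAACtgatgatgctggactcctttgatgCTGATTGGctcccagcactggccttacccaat
The Y box letters occurred in the window from 250 bases before to 50 after the start in both of these genes and in no other of the 26 members the table holds. They occurred in 4.10% of all 32851 promoters, on either strand. TAGCAAC was found in H2-Eb1 and Cd68 among the members and in 3.66% of promoters, and TGACGTCA in H2-Aa and in 1.79%. GAGGAAGT, a motif of the kind bound by the myeloid factor PU.1, was found in C1qc, Ctss and S100a8 and in 3.20% of promoters. H2-Ab1, Cd74, C1qa, Tyrobp and Ccl5 are not among the table's entries.

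No member passed an adjusted p of 0.05 in edgeR's quasi-likelihood test in any of the 7 comparisons, which share mice. Over all genes tested, the share called was 0.0064% for CE against Control, 0.89% for Sirt2-/- against Control, 0% for Sirt2-/-/CE against Sirt2-/-, 0.0128% for Sirt2-/-/CE against CE, 0% for the interaction of genotype and cold exposure, 0% for cold exposure over both genotypes and 0.186% for Sirt2 loss over both treatments. DESeq2 called 1 member in Sirt2-/- against Control (H2-Eb1) and 1 for Sirt2 loss over both treatments (Cd163), and limma voom called 0. The shares above are those of edgeR, and the share of all genes that DESeq2 called is not given here. At an unadjusted p under 0.05 edgeR counted 6, 7, 0, 7, 3, 2 and 11 members in the same order of comparisons, against 10.7%, 14.9%, 7.25%, 6.09%, 8.34%, 9.48% and 13.8% of all genes. In the 4 pairs of groups no member had all 5 mice of a group above or below all 5 of the other, against 3.04%, 3.61%, 0.743% and 1.22% of all genes. The differences given below are therefore values with their errors, none of them past the threshold in edgeR.

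**Figure D1:**
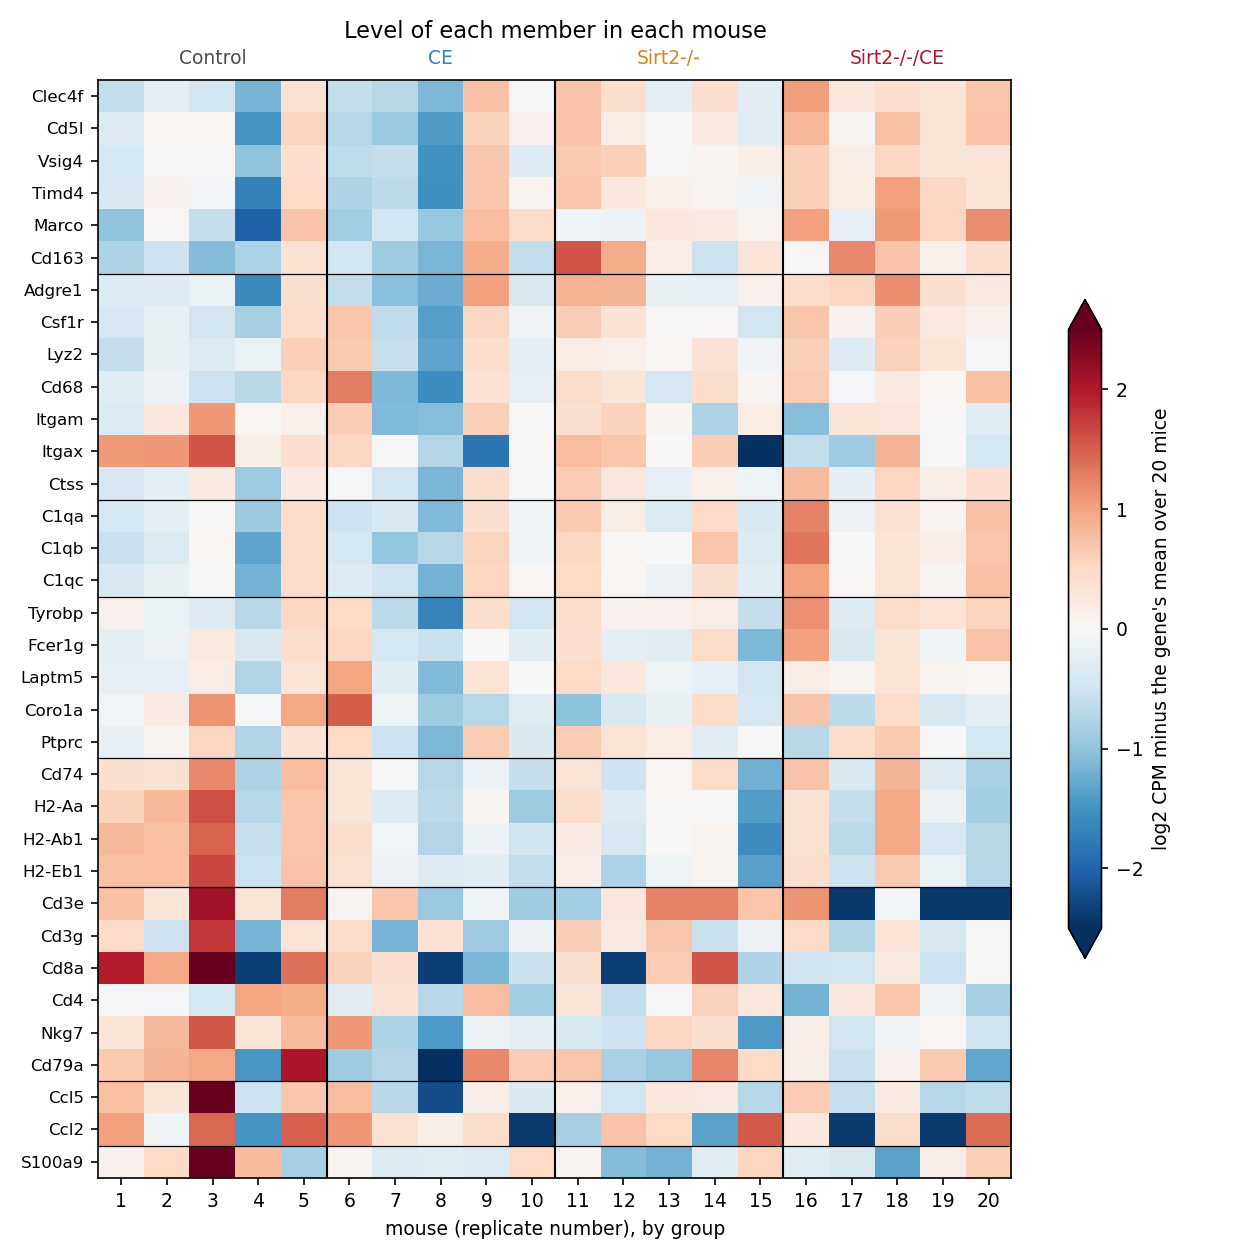
Log2 CPM of each of the 34 tested members in each mouse, less the gene's mean over the 20 mice (colour), with genes in rows by role and mice in columns by group. Control 3 is red across the MHC class II, T cell and chemokine genes, and CE 8 and Control 4 are blue across most macrophage genes.

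The highest mean CPM was in Control for 17 genes, in Sirt2-/-/CE for 16, in Sirt2-/- for 2 and in CE for 0. The lowest mean was in CE for 15 genes, in Control for 9, in Sirt2-/-/CE for 7 and in Sirt2-/- for 4. All 4 MHC class II genes, all 6 lymphocyte genes, both chemokines and both neutrophil alarmins were highest in Control. All 3 C1q chains and 5 of 6 Kupffer cell identity genes were highest in Sirt2-/-/CE. Single mice carried much of the range. Of the 34 tested genes, 12 had their highest level in Control 3 and 8 in Sirt2-/-/CE 16, and 13 had their lowest in CE 8 and 9 in Control 4.

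The 6 Kupffer cell identity genes had higher means in both knockout groups than in either wild-type group. Their summed level was 84.1 to 286 CPM in Control (median 178), 84.5 to 328 in CE (median 130), 184 to 342 in Sirt2-/- (median 243) and 241 to 372 in Sirt2-/-/CE (median 318). For Sirt2 loss over both treatments, 6 of 6 were at an unadjusted p under 0.05, all higher, with a median log2 difference of 0.60 against 0.02 over all genes tested and with 8.01% of all genes counted on that side. Cd163 (the haemoglobin scavenger receptor) had the lowest p at 0.96 (SE 0.29, adjusted p = 0.162). Clec4f (a lectin restricted to Kupffer cells) was at 0.68 (SE 0.22, adjusted p = 0.187), and, in order of size, Timd4 (a receptor for dying cells) was at 0.61, Marco (a scavenger receptor) at 0.60, Cd5l at 0.58 and Vsig4 at 0.57. Under cold exposure, Sirt2-/-/CE against CE, 4 of the 6 were at an unadjusted p under 0.05, all higher, against 3.89% of all genes on that side: Cd5l at 0.86 (SE 0.34), Timd4 at 0.81 (SE 0.36), Clec4f at 0.77 (SE 0.32) and Vsig4 at 0.70 (SE 0.30), with adjusted p from 0.678 to 0.754 in edgeR. Without CE 9, Vsig4 was at 1.104. In CE against Control none of the 6 reached that level, and the median difference was 0.03.

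Cd5l was at 67.2, 86.4, 86.4, 30.1 and 124 CPM in the 5 Control mice and at 50.7, 43.8, 31.3, 124 and 89.9 in the CE mice. It was at 136, 95.7, 84.7, 95.7 and 69.8 CPM in Sirt2-/- and at 148, 87.3, 140, 105 and 137 in Sirt2-/-/CE. Control 4 and CE 8 were the lowest, while CE 9 lay within the range of Sirt2-/-/CE, so these groups overlapped. Cd163 was at 6.37, 7.51, 5.08, 6.24 and 14.1 CPM in Control and at 7.80, 5.82, 4.89, 20.6 and 7.10 in CE. It was at 32.1, 20.8, 12.1, 7.49 and 13.5 CPM in Sirt2-/- and at 11.1, 25.1, 17.8, 11.9 and 14.5 in Sirt2-/-/CE. A single mouse in each wild-type group (Control 5 and CE 9) and Sirt2-/- 14 made the genotypes overlap. Against Control, the Sirt2-/- mice were 1.13 higher on the log2 scale (SE 0.41, adjusted p = 0.190), against 8.14% of all genes on the higher side at an unadjusted p under 0.05, with 4 of 5 above the Control mean. Marco had the lowest p of the 35 in Sirt2-/-/CE against Sirt2-/-, at 0.73 (SE 0.41, adjusted p = 0.735). It was at 4.35, 8.95, 5.82, 2.13 and 14.4 CPM in Control and at 4.80, 6.31, 4.53, 15.1 and 12.04 in CE. It was at 8.08, 7.90, 10.5, 10.3 and 9.32 CPM in Sirt2-/- and at 17.9, 7.62, 18.3, 12.7 and 19.7 in Sirt2-/-/CE. The Sirt2-/- mice lay close together, and 4 of 5 Sirt2-/-/CE mice were above all of them while Sirt2-/-/CE 17 was below. The count of 0 members at an unadjusted p under 0.05 in this comparison became 1 without Sirt2-/-/CE 16 or without Sirt2-/-/CE 17.

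The C1q chains, which together form the recognition molecule of the classical complement pathway, had a similar pattern to the Kupffer cell identity genes. Their summed level was 42.4 to 130 CPM in Control, 47.3 to 132 in CE, 73.8 to 137 in Sirt2-/- and 90.4 to 216 in Sirt2-/-/CE. C1qb was at 22.8, 26.2, 34.5, 13.4 and 46.6 CPM in Control, and at 24.6, 17.1, 20.2, 48.9 and 30.5 in CE. It was at 47.6, 34.7, 33.0, 53.8 and 26.2 CPM in Sirt2-/-, and at 83.8, 33.0, 41.3, 37.2 and 54.3 in Sirt2-/-/CE. Sirt2-/-/CE 16 was the highest of all 20 mice. C1qa was at 23.6, 26.8, 31.8, 16.7 and 44.1 CPM in Control, and at 22.2, 24.2, 14.7, 42.3 and 29.7 in CE. It was at 49.9, 36.0, 25.0, 44.1 and 24.5 CPM in Sirt2-/-, and at 75.7, 28.9, 40.8, 33.8 and 53.0 in Sirt2-/-/CE. All 5 Sirt2-/-/CE mice were above the CE mean for each chain, although CE 9 and CE 10 lay among them for C1qa. In Sirt2-/-/CE against CE the difference was 0.82 for C1qb (SE 0.33), 0.80 for C1qa (SE 0.31) and 0.66 for C1qc (SE 0.30), each at an unadjusted p under 0.05, against 3.89% of all genes on that side, and with adjusted p from 0.665 to 0.778 in edgeR. The ratio of C1qa to C1qb counts within a library ranged from 0.728 to 1.42 over the 20 mice and that of C1qc to C1qb from 0.616 to 1.16, while C1qb to Cd5l ranged from 0.296 to 0.645.

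Markers of sinusoidal endothelial cells, which line the vessels where Kupffer cells reside, were higher in the same comparisons. In Sirt2-/-/CE against CE, 9 of 9 (Stab1, Stab2, Clec4g, Lyve1, Pecam1, Kdr, Eng, Oit3 and Gpr182) were higher at an unadjusted p under 0.05, against 3.89% of all genes, with a median of 1.29, and 5 of the 9 did not overlap between the groups, against 1.22% of all genes. For Sirt2 loss over both treatments, 9 of 9 were higher at that level, against 8.01% of all genes, with a median of 0.80. Their summed level ranged from 91.6 to 342 CPM in Control, 65.6 to 245 in CE, 145 to 391 in Sirt2-/- and 267 to 410 in Sirt2-/-/CE, with the lowest values in CE 8 and Control 4, the same mice that were lowest for the Kupffer cell identity genes. No marker of the list was at an adjusted p under 0.05, and its part in the result for the macrophage genes was not tested. Hepatocyte markers had a median of 0.03 in Sirt2-/-/CE against CE and -0.05 for Sirt2 loss.

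The counts at an unadjusted p turned on single libraries. In Sirt2-/-/CE against CE, the 7 members (4 Kupffer cell identity genes and 3 C1q chains) became 1 without CE 7, 1 without CE 8, 2 without Sirt2-/-/CE 16 and 12 without CE 9. For Sirt2 loss, the 11 members became 7 without CE 7 or without Sirt2-/- 11, and 2 when Control 3, Control 4 and CE 8 were left out together, an alternative chosen after the data were seen.

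**Figure D2:**
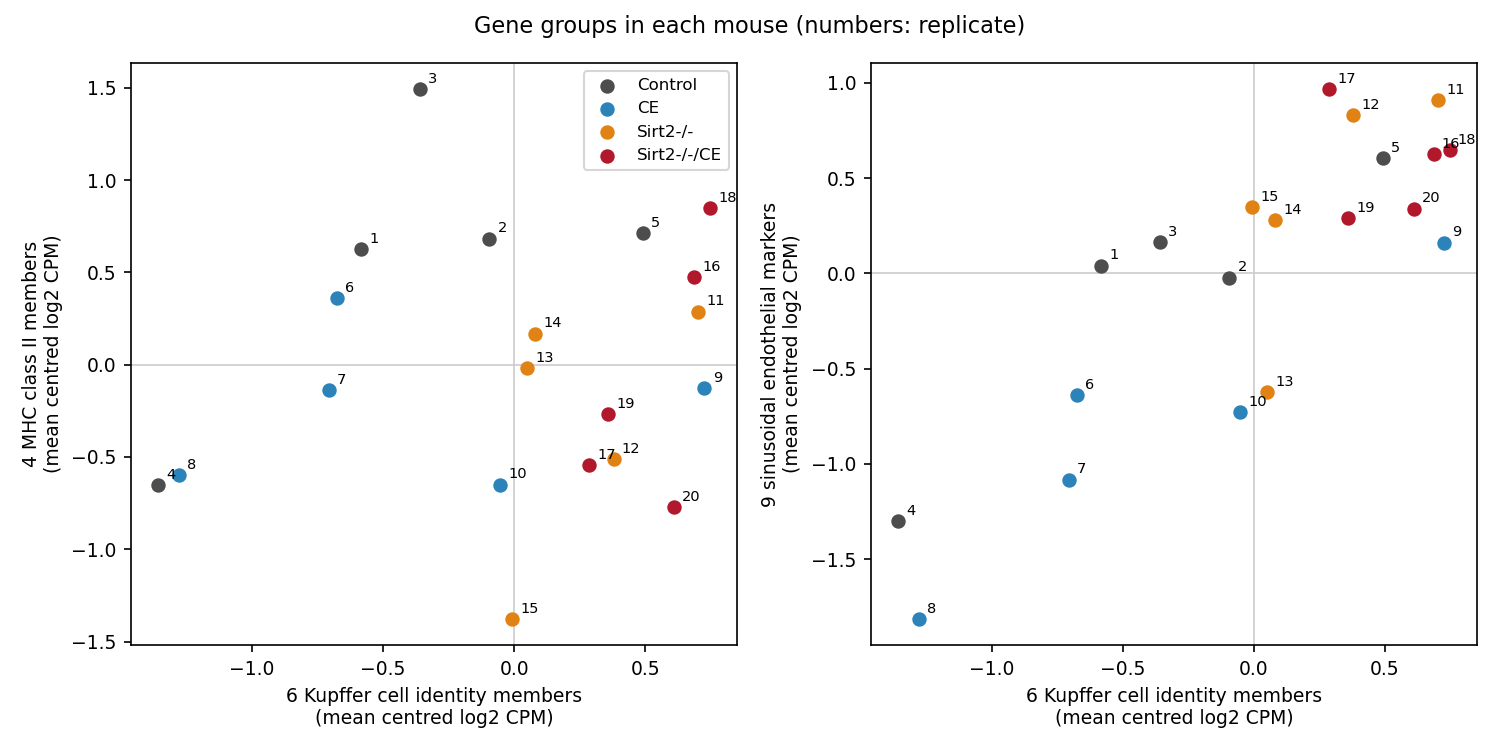
Mean centred log2 CPM of the 6 Kupffer cell identity members (horizontal) in each mouse against that of the 4 MHC class II members (left) and of 9 sinusoidal endothelial markers (right), with replicate numbers beside the points and colours for the 4 groups. Control 4 and CE 8 lie at the lower left of both panels, and Control 3 is the highest for MHC class II.

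The 7 macrophage and myeloid genes differed among themselves. For Sirt2 loss over both treatments, 2 of 7 were at an unadjusted p under 0.05, both higher, against 8.01% of all genes on that side: Adgre1 (a surface protein of macrophages) at 0.72 (SE 0.28, adjusted p = 0.257) and Ctss at 0.44 (SE 0.19, adjusted p = 0.303). Csf1r, the receptor for the growth factor on which macrophages depend, and Cd68, a lysosomal protein of macrophages, had their highest mean in Sirt2-/-/CE and their lowest in Control. Itgam and Itgax, integrin chains of myeloid and dendritic cells, had their highest mean in Control. Lyz2 was at 38.4, 51.2, 45.7, 51.5 and 87.0 CPM in Control, and at 91.3, 39.0, 23.1, 78.3 and 48.7 in CE. It was at 65.5, 63.4, 59.9, 74.3 and 54.9 CPM in Sirt2-/-, and at 87.9, 46.1, 86.7, 71.5 and 56.3 in Sirt2-/-/CE. The 4 groups overlapped throughout, and the difference for Sirt2 loss was 0.26 (SE 0.21, adjusted p = 0.607). Some of these counts may be split between loci. Lyz2 shares 95.8% of 1264 aligned bases with Lyz1, which took at most 0.813% of their joint counts. Csf1r shares 873 of its 5774 exon bases with Hmgxb3 on the other strand, which took 12.3% to 50.3% of their joint counts, and 3450 of the 5024 exon bases of Itgam lie within Gm49368 on the same strand. The counting tool and its use of strand are not given in the sources used here.

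Among the adaptors and pan-leukocyte genes, 0 of 5 were at an unadjusted p under 0.05 in any comparison. Tyrobp, the signalling adaptor of many myeloid and NK receptors, was at 5.79, 4.82, 4.29, 3.30 and 7.72 CPM in Control, and at 7.65, 3.39, 1.67, 7.11 and 3.90 in CE. It was at 7.33, 5.82, 5.79, 6.10 and 3.56 CPM in Sirt2-/-, and at 12.02, 4.28, 7.49, 6.86 and 7.95 in Sirt2-/-/CE. Only Sirt2-/-/CE 16 stood above the range of the other mice, and the difference from CE was 0.70 (SE 0.34, adjusted p = 0.822). Fcer1g, the Fc receptor gamma chain, was also highest in Sirt2-/-/CE, as was the lysosomal protein gene Laptm5. Ptprc (CD45, found on all leukocytes) had group means between 6.90 ± 3.38 CPM in CE and 8.16 ± 1.93 in Sirt2-/- (SD, n = 5). Coro1a, an actin regulator abundant in lymphocytes, was highest in Control at 6.36 ± 2.57 CPM and lowest in Sirt2-/- at 3.74 ± 1.44 (SD, n = 5).

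The 4 MHC class II genes had their highest means in Control. Their summed level was 63.2 to 270 CPM in Control (median 154), 65.5 to 130 in CE (median 93.4), 40.8 to 126 in Sirt2-/- (median 102) and 59.1 to 185 in Sirt2-/-/CE (median 83.4). H2-Eb1, a class II beta chain gene, was at 24.1, 24.6, 46.5, 9.93 and 23.9 CPM in Control, and at 19.04, 13.1, 11.7, 11.9 and 9.52 in CE. It was at 16.3, 8.41, 13.2, 15.4 and 5.64 CPM in Sirt2-/-, and at 19.4, 10.2, 22.8, 12.9 and 8.80 in Sirt2-/-/CE. Of the 5 Control mice, 4 were above every mouse of the other groups, and Control 4, at 9.93, was the exception. Cd74 was at 68.5, 67.7, 120, 30.3 and 87.9 CPM in Control, and at 64.2, 51.6, 31.8, 47.0 and 34.2 in CE. It was at 65.3, 36.3, 53.4, 72.1 and 22.4 CPM in Sirt2-/-, and at 84.9, 39.1, 93.6, 41.4 and 29.3 in Sirt2-/-/CE. For Cd74, Control 4 lay below all CE mice, and Sirt2-/-/CE 16 and 18 lay among the Control mice.

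In CE against Control, 3 of the 4 class II genes were at an unadjusted p under 0.05, all lower, against 5.22% of all genes on that side: H2-Aa at -1.002 (SE 0.40, adjusted p = 0.358), H2-Eb1 at -0.98 (SE 0.35, adjusted p = 0.308) and H2-Ab1 at -0.92 (SE 0.38, adjusted p = 0.385). Cd74 was at -0.71 (SE 0.37, adjusted p = 0.529). In Sirt2-/- against Control the same 3 genes were at that level and lower, against 6.78% of all genes on that side, with H2-Eb1 at -1.13 (SE 0.35, adjusted p = 0.125), H2-Ab1 at -0.98 (SE 0.38, adjusted p = 0.218) and H2-Aa at -0.91 (SE 0.39, adjusted p = 0.280). All 5 mice of each group were below the Control mean for all 4 genes. Most Control mice were below it too for H2-Eb1 and Cd74. For H2-Eb1 the Control mean was 25.8 CPM, and only Control 3 was above it. For Cd74 it was 74.8 CPM, and Control 1, Control 2 and Control 4 were below it. These comparisons share the Control mice. With cold exposure on the knockout background, Sirt2-/-/CE against Sirt2-/-, the 4 genes differed by 0.21 to 0.33, and none was at an unadjusted p under 0.05.

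The interaction of genotype and cold exposure asks whether the difference between cold-exposed and room-temperature mice depended on Sirt2. For H2-Eb1 it was 1.31 (SE 0.50, adjusted p = 0.491), for H2-Aa 1.24 (SE 0.56, adjusted p = 0.564) and for H2-Ab1 1.20 (SE 0.53, adjusted p = 0.564). These were the only members at an unadjusted p under 0.05 in that test, all higher, against 4.73% of all genes on that side, and the count became 1 without Control 3, CE 8, CE 10, Sirt2-/- 12 or Sirt2-/-/CE 16 singly, 5 without Control 4 and 6 without CE 6. Without Control 3, the mouse with the highest class II levels, H2-Eb1 was at -0.66 in CE against Control and at -0.81 in Sirt2-/- against Control. Without Control 4, the lowest Control mouse, it was at -1.19 and -1.34, the latter with an adjusted p of 0.0493 in edgeR.

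**Figure D3:**
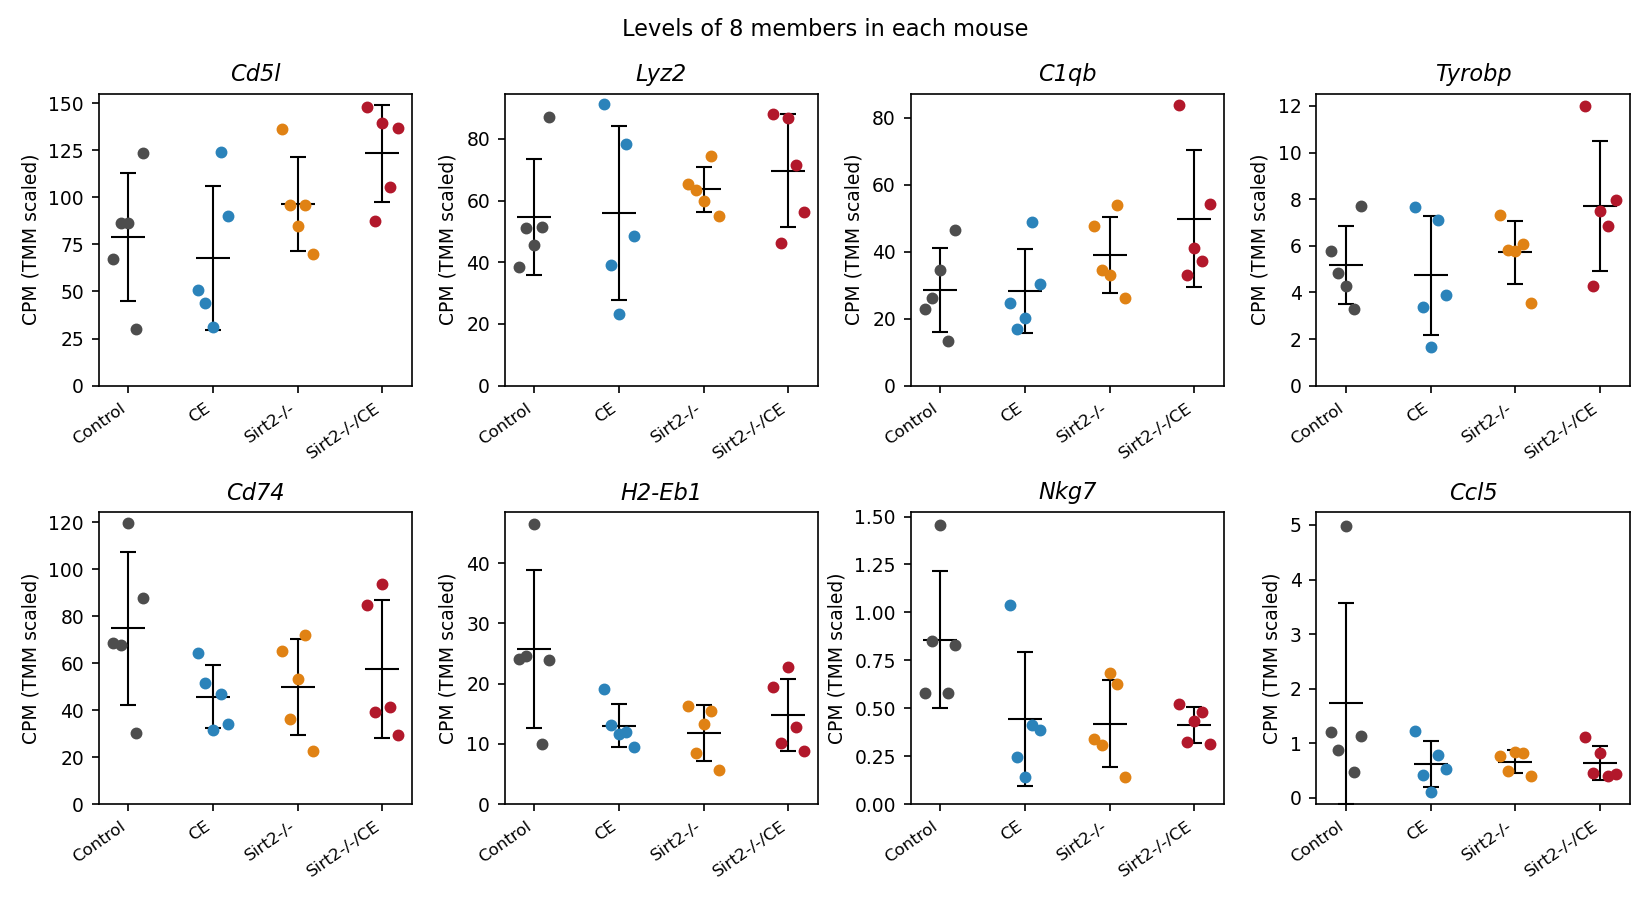
CPM of 8 members in each mouse (points) by group, with the group mean (horizontal line) and SD (bars, n = 5) on linear axes. Cd5l and C1qb have their highest mean in Sirt2-/-/CE, Cd74, H2-Eb1, Nkg7 and Ccl5 in Control, and the wide Control bar of Ccl5 comes from Control 3 at 4.98 CPM.

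Over the 20 mice, H2-Aa counts were 0.627 to 0.995 of those of H2-Ab1, a range of 1.59-fold, and H2-Eb1 counts were 0.573 to 0.983 of them, a range of 1.71-fold. The ratio of C1qa to C1qb ranged over 1.95-fold, that of C1qc to C1qb over 1.88-fold and that of H2-Ab1 to C1qb over 7.14-fold. The ratio of H2-Ab1 to C1qb, which needs no scaling of libraries, ranged from 0.680 to 1.59 in Control (median 1.27), 0.361 to 1.09 in CE (median 0.587), 0.256 to 0.590 in Sirt2-/- (median 0.423) and 0.222 to 0.920 in Sirt2-/-/CE (median 0.373). Taken over whole groups of genes, the mean centred log2 level of the class II genes less that of the Kupffer cell identity genes was 0.95 ± 0.61 in Control, 0.17 ± 0.84 in CE, -0.53 ± 0.60 in Sirt2-/- and -0.59 ± 0.57 in Sirt2-/-/CE (SD, n = 5). The 5 Control mice (0.22 to 1.85) did not overlap with the knockout mice, whose highest values were 0.09 and 0.10, while the CE mice (-0.85 to 1.04) spanned both. This difference was chosen after the values were seen and is given without a test.

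Lymphocyte genes were scarce, and all 6 had their highest mean in Control. Their summed level was 2.83 to 7.10 CPM in Control, 1.30 to 3.12 in CE, 1.77 to 4.20 in Sirt2-/- and 1.498 to 3.14 in Sirt2-/-/CE. Nkg7, a granule protein of NK and cytotoxic T cells, was at 0.577, 0.851, 1.46, 0.578 and 0.828 CPM in Control, and at 1.04, 0.248, 0.141, 0.413 and 0.384 in CE. It was at 0.341, 0.308, 0.683, 0.625 and 0.143 CPM in Sirt2-/-, and at 0.521, 0.323, 0.432, 0.483 and 0.314 in Sirt2-/-/CE. Against Control, Nkg7 was at -1.03 in Sirt2-/- (SE 0.48, adjusted p = 0.325). Cd8a, a co-receptor chain of cytotoxic T cells, was at 0.892, 0.425, 1.78, 0 and 0.582 CPM in Control, and at 0.314, 0.276, 0, 0.0620 and 0.118 in CE. It was at 0.272, 0, 0.328, 0.674 and 0.0956 CPM in Sirt2-/-, and at 0.124, 0.129, 0.240, 0.121 and 0.193 in Sirt2-/-/CE. Reads were absent in 1 mouse of each of Control, CE and Sirt2-/-, which leaves the order of single mice at this depth uncertain. Cd8a was at -2.23 in CE against Control (SE 0.96, adjusted p = 0.415).

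For cold exposure over both genotypes, Cd8a at -1.49 (SE 0.68, adjusted p = 0.509) and Cd3e, a chain of the T cell receptor complex, at -1.38 (SE 0.63, adjusted p = 0.511) were the only members at an unadjusted p under 0.05, against 4.85% of all genes on that side. Cd3e was at 0 in 3 of 20 mice, and the count fell to 1 without Control 1, Sirt2-/- 11 or Sirt2-/-/CE 20 and to 0 without Control 3, CE 8, CE 9, CE 10, Sirt2-/- 13, Sirt2-/- 14, Sirt2-/-/CE 17 or Sirt2-/-/CE 19. Without Sirt2-/-/CE 16, Cd3e was at -2.12. Cd3g, the gamma chain of the same complex, Cd4, the co-receptor of helper T cells, and Cd79a, a chain of the B cell receptor complex, had no unadjusted p under 0.05 in any comparison. Cd79a shares 98.7% of 298 aligned bases with Gm32220.

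Chemokine and alarmin differences rested on Control 3. Ccl5, which attracts T cells and monocytes, was at 1.21, 0.871, 4.98, 0.475 and 1.14 CPM in Control, and at 1.23, 0.414, 0.113, 0.785 and 0.532 in CE. It was at 0.772, 0.487, 0.847, 0.824 and 0.406 CPM in Sirt2-/-, and at 1.12, 0.452, 0.816, 0.410 and 0.435 in Sirt2-/-/CE. Control 3 was several times above every other mouse. The difference in CE against Control was -1.48 (SE 0.58, adjusted p = 0.359), and -0.58 without Control 3. In Sirt2-/- against Control it was -1.37 (SE 0.58, adjusted p = 0.265), and -0.48 without Control 3. S100a9, a calcium-binding protein of neutrophils, was at 0.472, 0.628, 3.997, 0.785 and 0.224 CPM in Control, and at 0.459, 0.331, 0.339, 0.331 and 0.621 in CE. It was at 0.454, 0.179, 0.164, 0.350 and 0.645 CPM in Sirt2-/-, and at 0.348, 0.323, 0.144, 0.483 and 0.677 in Sirt2-/-/CE. Without Control 3, S100a9 was at -0.35 in CE against Control in place of -1.54 (SE 0.63, adjusted p = 0.378), and at -0.56 in Sirt2-/- against Control in place of -1.75 (SE 0.63, adjusted p = 0.186). Ccl2, the monocyte attractant, was at 0 in 3 mice and at no more than 0.669 CPM in any. Without Control 3, the 6 members at an unadjusted p under 0.05 in CE against Control became 0, and the 7 in Sirt2-/- against Control became 2. The 6 became 3 without CE 10 and 10 without CE 6, and the 7 became 4 without Sirt2-/- 12.

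**Figure D4:**
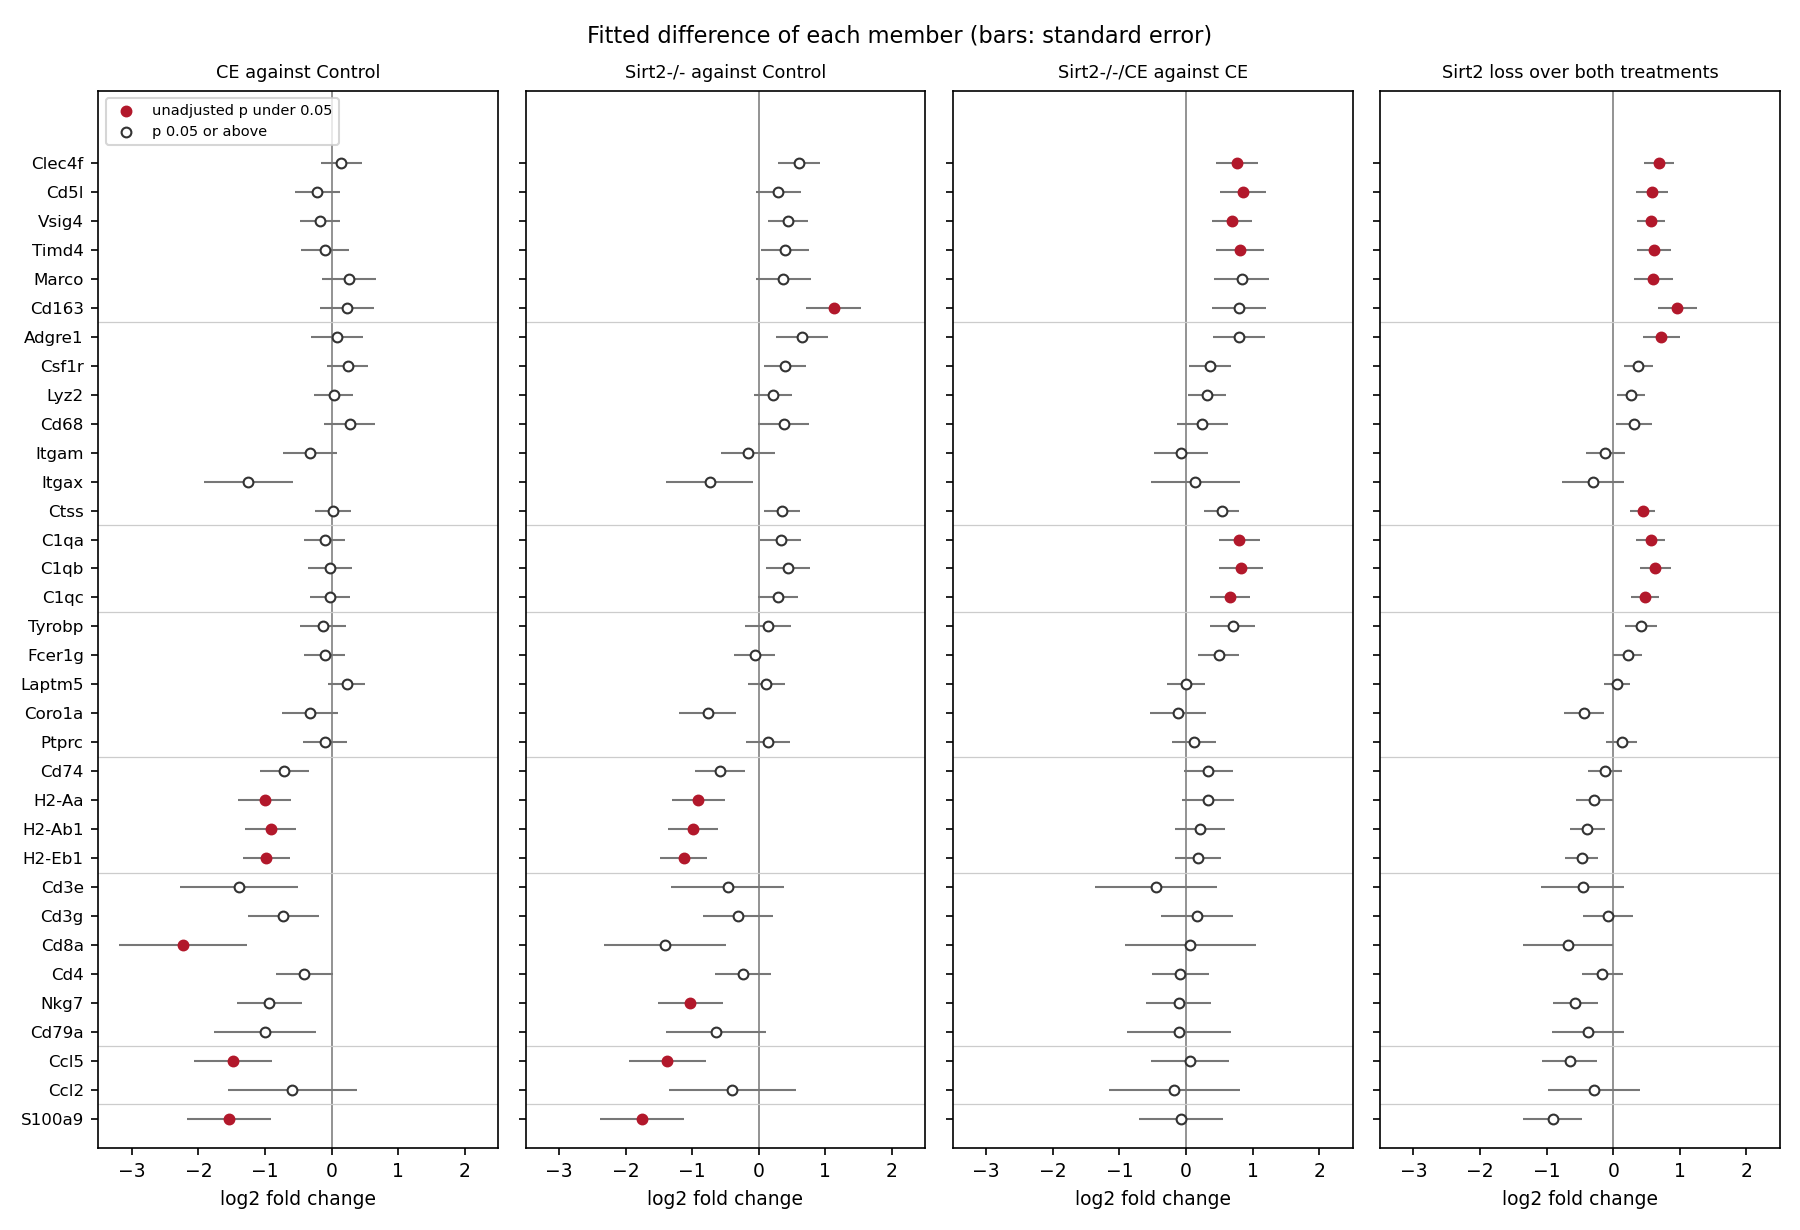
Log2 fold change of each tested member (points) with its standard error (bars) in 4 of the comparisons, from the edgeR fit. Filled points have an unadjusted p under 0.05, and they include 3 of 4 MHC class II genes (not Cd74), Cd8a, Ccl5 and S100a9 on the lower side in CE against Control, and 4 of 6 Kupffer cell identity genes and the 3 C1q chains on the higher side in Sirt2-/-/CE against CE.

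Other genes of the same cell types and pathways were read from 9 further lists. Of their 98 genes, 76 were tested, and their share at an unadjusted p under 0.05 was read against that of all genes tested. In CE against Control it was 8 genes (10.5% against 10.7% of all genes in either direction), which is near the background. All 8 were lower, against 5.22% of all genes, so on the lower side the share was above the background. In Sirt2-/-/CE against Sirt2-/- it was 4, of them 1 lower (5.26% against 7.25%), which is below the background. For cold exposure over both genotypes it was also 4, of them 3 lower (5.26% against 9.48%), again below it in either direction. The share was above the background in Sirt2-/- against Control with 15 genes, 14 of them lower (19.7% against 14.9%), and in Sirt2-/-/CE against CE with 7, of them 1 lower (9.21% against 6.09%). It was also above it for the interaction with 11, of them 1 lower (14.5% against 8.34%), and for Sirt2 loss over both treatments with 15, of them 8 lower (19.7% against 13.8%). Of the 10 further Kupffer cell genes, 3 were higher at that level in Sirt2-/-/CE against CE, against 3.89% of all genes on that side. Among them was Clec1b, a lectin of Kupffer cells and platelets, at 0.76 (SE 0.29, adjusted p = 0.653). The summed level of the 10, which the abundant genes dominate, went the other way, with a median of 556 CPM in CE and 454 in Sirt2-/-/CE. Their mean centred log2 level was -0.26 ± 0.48 in CE and 0.29 ± 0.22 in Sirt2-/-/CE (SD, n = 5). Cfp, the complement regulator properdin, was at 0.52 for Sirt2 loss (SE 0.22, adjusted p = 0.297). Of 7 tested Fc receptors and their partners, 4 were higher for Sirt2 loss, against 8.01% of all genes on that side. Among them was the activating receptor gene Fcgr3 at 0.60 (SE 0.20, adjusted p = 0.196). Fcgr2b, the inhibitory Fc receptor, which sinusoidal endothelium also carries, was at 1.20 in Sirt2-/-/CE against CE (SE 0.34, adjusted p = 0.426) with no overlap between the groups, as for 1.22% of all genes. Of 9 monocyte-derived macrophage genes tested, 2 were lower for Sirt2 loss, where 13.8% of all genes were at that level in either direction and 8.01% were higher. Spp1 (osteopontin, also made by cholangiocytes) was at -0.71 (SE 0.15, adjusted p = 0.0591 in edgeR, 0.00188 with DESeq2 and 0.0248 without Sirt2-/- 13). Gpnmb, a gene of lipid-laden macrophages, was at -3.20 in Sirt2-/-/CE against Sirt2-/- (SE 1.16, adjusted p = 0.563), and at -1.75 without Sirt2-/- 15.

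Of 9 dendritic cell genes, only Zbtb46, a transcription factor of dendritic and endothelial cells, was at an unadjusted p under 0.05 in Sirt2-/-/CE against CE, at 0.82 (SE 0.26, adjusted p = 0.510), with no overlap. Of all genes, 3.89% were higher at that level and 1.22% did not overlap, so a count of 1 of 9 is near the background. The chemokine receptor gene Xcr1, a mark of cross-presenting dendritic cells, was at 1.20 for cold exposure over both genotypes (SE 0.45, adjusted p = 0.421). Among 9 genes of class II machinery and co-stimulation, 2 were lower in CE against Control (5.22% of all genes were), with Cd40, the receptor for T cell help, at -1.87 (SE 0.62, adjusted p = 0.273), and 0 were at that level in Sirt2-/- against Control. Cd86, a co-stimulatory ligand, was at 0.59 for Sirt2 loss (SE 0.24, adjusted p = 0.282). Of 12 T and NK cell genes tested, 4 were lower in Sirt2-/- against Control, where 6.78% of all genes were, with the granule protease gene Gzma at -3.40 (SE 1.08, adjusted p = 0.129 in edgeR and 0.0260 with DESeq2) and -2.14 without Control 3. Cd8b1, the partner of Cd8a, was at -3.41 there (SE 1.19, adjusted p = 0.169), and at -6.83 without Sirt2-/- 11. Of 8 B and plasma cell genes tested, 3 were lower there, with the immunoglobulin heavy chain gene Ighm at -1.27 (SE 0.38, adjusted p = 0.101 in edgeR and 0.0249 with DESeq2) and no overlap. Jchain, which joins secreted antibody units, was at -1.32 in CE against Control (SE 0.37, adjusted p = 0.198 in edgeR and 0.0448 with DESeq2), and at -0.82 without Control 3. Of 9 neutrophil genes, 8 were too low to test, and the receptor gene Csf3r had no unadjusted p under 0.05 in any comparison.

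Il18, a cytokine made by Kupffer cells and other liver cells, was the only gene of the further lists past an adjusted p of 0.05 in the edgeR fit of all 20 libraries. It was lower in Sirt2-/- than in Control by -0.98 on the log2 scale (SE 0.20, edgeR adjusted p = 0.0340), in 5 of 5 mice and with no overlap. In that comparison 0.89% of all genes were called and 3.61% did not overlap, so 1 called gene of 76 is near the background. The call was lost with no filter on low counts (adjusted p = 0.0551), in a fit of these groups alone (0.0746), and without Control 1 (0.0742), Control 2 (0.0640), Control 3 (0.0850), Control 5 (0.0636), Sirt2-/- 12 (0.0654), Sirt2-/- 14 (0.0769) or Sirt2-/- 15 (0.105), while the difference stayed between -1.07 and -0.89 when single mice were left out. For Il18 the adjusted p was also lower in some alternatives, at 0.0152 in edgeR without Sirt2-/- 13 and lower still under another processing. The adjusted p for Il1b, another cytokine of the list, was 0.157 in CE against Control at -2.82 (SE 0.65). It was 0.00173 with DESeq2 and 0.0133 without Control 4.

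Markers of other cell types differed between the groups less evenly than the endothelial list. In CE against Control, 3 of 9 endothelial and 1 of 9 stellate cell markers were lower at an unadjusted p under 0.05, beside the class II genes, as were 0 of 9 hepatocyte, 0 of 5 cholangiocyte, 0 of 5 erythroid and 0 of 3 platelet markers, while 2 of 4 cell cycle markers were higher. The summed level of the cell cycle markers was 51.2 CPM in CE 6 and 20.3 in CE 9, against 2.32 to 6.92 in the other CE mice and 2.90 to 8.13 in Control. CE 6 was also the highest of all 20 mice for Csf1r, Lyz2, Cd68, Laptm5 and Coro1a. Of all genes, 10.7% were at that level there and 5.22% were lower. In Sirt2-/- against Control, 0 of 9 endothelial, 0 of 9 stellate, 0 of 5 cholangiocyte, 0 of 3 platelet and 0 of 4 cell cycle markers were at that level, and 1 of 9 hepatocyte and 1 of 5 erythroid markers were lower, against 6.78% of all genes. In Sirt2-/-/CE against CE, 2 of 9 stellate markers were higher, and 1 of 5 cholangiocyte and 2 of 4 cell cycle markers were lower, against 6.09% of all genes at that level in either direction. A count of 1 in lists this short is near these background shares. The part of these lists in the differences of the immune genes was not tested.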

How the data were processed

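RNA was taken from 20 livers, 5 per group. Poly(A) RNA was sequenced on an Illumina NovaSeq. The authors deposited a count and an FPKM value per gene and library. The labels name the genome build mm10, and the aligner, counter and its use of strand are not given in the sources used here. The deposited counts were used unnormalized for every test, and the deposited FPKM values only for levels between genes and as an alternative on log2(FPKM + 1). Lines without a gene (9) were left out.

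The 35 members and all gene lists were chosen with earlier results of these data known. Genes were filtered by expression in edgeR 4.0.16 (minimum count 10, minimum total 15), scaled by TMM and fitted together over all 20 libraries with group as the only term (quasi-likelihood test, R 4.3.3). P-values were adjusted by Benjamini-Hochberg over 15616 genes. The standard error is the log2 fold change divided by the root of F. Levels are TMM-scaled CPM, and centred log2 values use a prior count of 2. The test was checked on simulated counts. Over 190 pairs of libraries, the lowest median chi-square was 4.83, against 0.455 from counting noise, so no library appeared to be deposited more than once. Nothing states separate litters or cages. The p-values rest on the spread between these mice, and a group difference cannot be told apart from one of litter or cage. Depth was 35499796 to 53917339 counts per library, and genes below about 1 CPM carry large counting error.

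Values in every mouse are given for the member with the highest FPKM of each of 8 roles and the member with the lowest p in each comparison. Genes of the further lists were named when called, otherwise at most 2 a list by lowest p. Alternatives were DESeq2 1.42.0, limma 3.58.1 (voom), library size scaling, other filters, fits of 2 groups, log2(FPKM + 1) and leaving out mice. Positions are from GENCODE vM21 (GRCm38), promoters from RefSeq and sequence similarity from BLAST+ 2.17.0.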

Additional observations from a re-analysis of the deposited data

Results flagged for a closer look

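In 5 of the 52 sets of 5 mice examined (13 members in each of 4 groups), the highest mouse stood apart from the other 4 by Dixon's criterion, where chance gives about 2.6. Cd163 was at 14.1 CPM in Control 5 and at 20.6 CPM in CE 9, each above the other 4 mice of its group. Lyz2 was at 87.0 CPM in Control 5. Ccl5 was at 4.98 CPM and S100a9 at 3.997 CPM in Control 3, the mouse that was also highest for all 4 MHC class II genes. What sets these mice apart was not tested.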

How the results depend on the processing

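None of the 54 log2 fold changes followed through the alternatives changed sign. Their size did change. On log2(FPKM + 1), which understates the change of low genes, Cd8a was at -0.20 and Cd40 at -0.20 in CE against Control, Cd8b1 at -0.24 in Sirt2-/- against Control, Gpnmb at -0.24 in Sirt2-/-/CE against Sirt2-/- and Xcr1 at 0.09 for cold exposure over both genotypes. Without Control 3, Control 4 and CE 8 together, S100a9 was at -0.03 in CE against Control, and for Sirt2 loss over both treatments Timd4 was at 0.37, Cd5l at 0.37, Marco at 0.34 and C1qc at 0.30. DESeq2 put Il1b, Jchain, Gzma, Ighm and Spp1 past an adjusted p of 0.05 where edgeR did not, and Spp1 also passed it with a minimum of 10 counts in every library (0.0473) and without Control 2, Control 3, Sirt2-/- 13 or Sirt2-/-/CE 20 (0.0248 to 0.0481). With DESeq2, 1 member was called in Sirt2-/- against Control (H2-Eb1, adjusted p = 0.0398) and 1 for Sirt2 loss over both treatments (Cd163, adjusted p = 0.0403), where edgeR called 0. The share of all genes that DESeq2 called is not given here, so its calls have no background beside them. Leaving out single mice gave 0 to 1 members called in Sirt2-/- against Control, the 1 being H2-Eb1 without Control 4 (adjusted p = 0.0493). It gave 0 in the other comparisons. The cause was not tested. At an unadjusted p under 0.05, limma voom counted 4 members in Sirt2-/- against Control and 12 in Sirt2-/-/CE against CE, DESeq2 counted 11 in the latter, and a minimum of 10 counts in every library left 3 in CE against Control, since it removed Cd8a, Ccl5 and S100a9. In all, 33 of these counts moved by over 1.5 times, 10 fell to 0, 5 rose from 0 and 98 did neither. Without Control 3, Control 4 and CE 8 together, a choice made after the data were seen, 0 members were called in any comparison, and the counts at an unadjusted p were 1 in CE against Control, 3 in Sirt2-/- against Control and 4 in Sirt2-/-/CE against CE. No paired analysis was possible because the groups share no replicate numbers. Depth limits the lymphocyte, chemokine and alarmin genes, several of which had 0 counts in some mice.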
